A study of Homo sapiens with 6 samples.

Results

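The inter-alpha-trypsin inhibitor family was examined in Hep G2, a human liver tumor cell line, through 5 of the 23524 genes in the deposited table: the heavy-chain genes ITIH1, ITIH2, ITIH3 and ITIH4, and the light-chain gene AMBP. The 5 genes were taken by their names, but the family was chosen from results of these libraries in which their FPKM values (fragments per kilobase of transcript, scaled to the mapped fragments of the library) in control and EFTUD2-overexpressing cells were already known. Their levels and fold changes in this comparison are therefore given as a description, without a test. All 5 genes passed the filter on low values (0.1 FPKM or more on average across the 6 libraries), as did 17222 genes in all.

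Both groups were Hep G2 cells. The EFTUD2 group stably overexpressed EFTUD2, a GTPase of the spliceosome (3 libraries), and the other group was the control (3 libraries). The paper made its stable Hep G2 lines with a lentivirus for EFTUD2 or for the vector alone, and describes selection of stable cells in puromycin. The library titles say only control, and the paper does not state for the sequencing that this was the vector line. The comparison addressed which mRNAs differ when EFTUD2 is raised in these cells. The labels number the libraries of a group 1 to 3 but do not say whether they came from separate cultures or separate infections, so the p-values below measure only the spread between these libraries, which may be technical.

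Inter-alpha-inhibitors are plasma proteins that hepatocytes assemble and secrete. AMBP encodes a precursor that is cleaved into alpha-1-microglobulin and bikunin, and bikunin, a Kunitz-type inhibitor of serine proteases, carries a chondroitin sulfate chain. The heavy chains encoded by ITIH1, ITIH2 and ITIH3 are joined to bikunin through this chain, and in tissues they can be moved onto hyaluronan by TNFAIP6 (TSG-6). ITIH4 encodes a related protein that circulates without bikunin, is cleaved by plasma kallikrein and is known as an acute-phase protein.

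The libraries were alike in size, with FPKM sums of 404342 to 416530 in the controls and 415880 to 434542 in the EFTUD2 group. FPKM keep no read numbers, so the depth is unknown. EFTUD2 itself (Entrez gene 9343) had values of 41.1, 54.4 and 46.3 FPKM in control replicates 1 to 3, against 106.6, 102.9 and 109.5 FPKM in EFTUD2 replicates 1 to 3 (log2 fold change 1.16, standard error 0.12, limma adjusted p = 0.13). Across all genes tested, limma called 0 of 17222 (0%) at a Benjamini-Hochberg adjusted p under 0.05, while 2118 had an unadjusted p under 0.05. Without EFTUD2 replicate 3, which lay farthest from the other libraries of its group, 167 genes were called. Array weights, which let a library count less when it departs from its group, gave 1246 called genes. Here the weights were 0.95, 1.81 and 27.7 for control replicates 1 to 3, and 0.035, 2.30 and 0.26 for EFTUD2 replicates 1 to 3. That fit therefore rested mainly on control replicate 3 and EFTUD2 replicate 2.

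The 15 hepatocyte markers were all found, with summed levels of 8630 to 12189 FPKM in the controls and 10840 to 15331 FPKM in the EFTUD2 group. Of 10 macrophage markers, PTPRC, TYROBP, CSF1R and CD163 were under 0.1 FPKM in every library, and of 10 endothelial markers KDR, TEK, EMCN and ERG were. The summed macrophage markers, most of them LYZ, which stood at 744 FPKM or more in every library, were at 776 to 2281 FPKM in the controls and 885 to 1750 FPKM in the EFTUD2 group. The endothelial sums were 16.9 to 19.98 FPKM and 5.90 to 11.4 FPKM. Fibroblast and mesenchymal markers summed to 21.9 to 30.5 FPKM in the controls, against 99.4, 198.3 and 18.96 FPKM in EFTUD2 replicates 1 to 3, with COL1A2, PDGFRA, DCN, THY1 and FAP of the 11 under 0.1 FPKM in every library. Biliary and squamous markers summed to 519 to 600 FPKM and 319 to 565 FPKM, with KRT5, TP63 and KRT6A of the 10 under 0.1 FPKM. In bulk RNA such as this, fewer cells of a kind and less RNA per cell cannot be told apart.

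The family spanned 3 orders of magnitude in Hep G2 cells, and its order was the same in both groups. From the highest, it ran AMBP, ITIH2, ITIH3, ITIH4, ITIH1. In the controls the mean levels were 438.7, 250.4, 37.7, 1.85 and 0.39 FPKM. AMBP stood at rank 126 and ITIH2 at rank 197 of all genes listed, whereas ITIH1 stood at rank 14443. The ranges of neighbours in this order did not overlap in either group, and each gene exceeded the next in 3 of 3 libraries of each group. The closest neighbours were AMBP and ITIH2, whose means differed by 1.75 times in the controls and by 1.81 times in the EFTUD2 group.

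**Figure D1:**
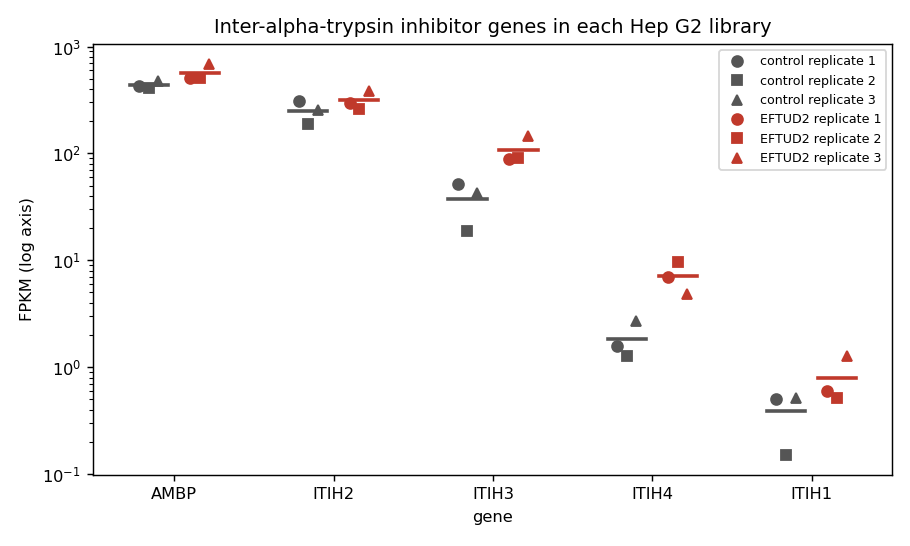
FPKM (log axis) of the 5 genes in each of the 6 libraries, controls in grey and EFTUD2 libraries in red, with symbols for replicates 1 to 3 and a line at the mean of each group. The EFTUD2 libraries lie above all controls for ITIH3, ITIH4 and, narrowly, AMBP, and overlap with them for ITIH2 and ITIH1.

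AMBP (Entrez gene 259, chromosome 9 from 114060127 to 114078300 in GRCh38.p14, minus strand), the light-chain precursor, was measured at 424.8, 412.7 and 478.6 FPKM in control replicates 1 to 3. In EFTUD2 replicates 1 to 3 it was at 509.0, 503.7 and 692.8 FPKM. All 3 EFTUD2 libraries were above all controls, but replicate 2, the lowest, was close to the highest control, and replicate 3 stood well above the other two. The log2 fold change was 0.36 (standard error 0.16) and the ratio of means 1.30. It was 0.21 without EFTUD2 replicate 3 and 0.14 with array weights.

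ITIH2 (Entrez gene 3698, chromosome 10 from 7703316 to 7749520, plus strand) encodes the heavy chain that the liver line made in the largest amount. Controls 1 to 3 gave 309.7, 189.0 and 252.4 FPKM, against 296.7, 258.8 and 386.0 FPKM in the EFTUD2 libraries. The groups overlapped, with control replicate 1 above EFTUD2 replicates 1 and 2, and the log2 fold change was 0.33 (standard error 0.23). It was 0.15 without control replicate 2, 0.17 without EFTUD2 replicate 3 and 0.11 with array weights.

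ITIH3 (Entrez gene 3699, chromosome 3 from 52794796 to 52808797, plus strand) encodes the heavy chain that joins bikunin in pre-alpha-inhibitor. Controls 1 to 3 gave 52.1, 18.8 and 42.4 FPKM, against 89.2, 91.3 and 145.7 FPKM in the EFTUD2 libraries. Each EFTUD2 library was above each control, and the lowest of them was 1.71 times the highest control. The means were 37.7 ± 17.1 FPKM and 108.7 ± 32.02 FPKM (SD, n = 3 each), a ratio of 2.88. The log2 fold change of 1.58 (standard error 0.39) lay at percentile 99.5 of all genes tested.

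ITIH4 (Entrez gene 3700, chromosome 3 from 52812962 to 52830672, minus strand) encodes the heavy chain that is made without bikunin. Controls 1 to 3 gave 1.57, 1.26 and 2.73 FPKM, against 6.91, 9.66 and 4.83 FPKM in the EFTUD2 libraries. Again each EFTUD2 library was above each control, here by at least 1.77 times. The means were 1.85 ± 0.775 FPKM and 7.13 ± 2.42 FPKM (SD, n = 3 each), a ratio of 3.85, the highest in the family. On the log2 scale the fold change was 1.50 (standard error 0.28) with 1 FPKM added to each value, and 1.90 with 0.1 FPKM added. GENCODE release 29 places a protein-coding gene on the same strand over 18198 bases of ITIH4 and the antisense gene ITIH4-AS1 over 1380 bases. Neither is listed by name among the deposited genes. The sources used here do not state whether counting used strand or which annotation it used, so the value of ITIH4 may include or lose reads shared with them.

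ITIH1 (Entrez gene 3697, chromosome 3 from 52777599 to 52792068, plus strand) encodes the heavy chain that, with that of ITIH2, forms inter-alpha-inhibitor in plasma. In Hep G2 cells it was low, with 0.50, 0.15 and 0.51 FPKM in controls 1 to 3 against 0.60, 0.51 and 1.27 FPKM in EFTUD2 replicates 1 to 3. EFTUD2 replicate 2 stood level with control replicate 3, and control replicate 2 was the lowest and EFTUD2 replicate 3 the highest library. The log2 fold change was 0.36 (standard error 0.19), 0.18 without EFTUD2 replicate 3, 0.084 with array weights, and 0.89 with 0.1 FPKM in place of 1 FPKM as the added constant. The ratio of means was 2.05.

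The higher levels were thus largest in ITIH3 and ITIH4. The groups did not overlap, with the EFTUD2 libraries above, for 3 of the 5 genes, where this held for 7.92% of all genes tested. A log2 fold change of at least 1 was found for 2 of the 5, against 1.25% of all genes, one of at least 0.3 for 5, against 9.82%, and one above 0 for 5, against 37.3%. As these values come from the comparison that was known when the family was chosen, nothing is read from these counts. The median log2 fold change was 0.36 over the family and -0.07 over all genes tested.

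**Figure D2:**
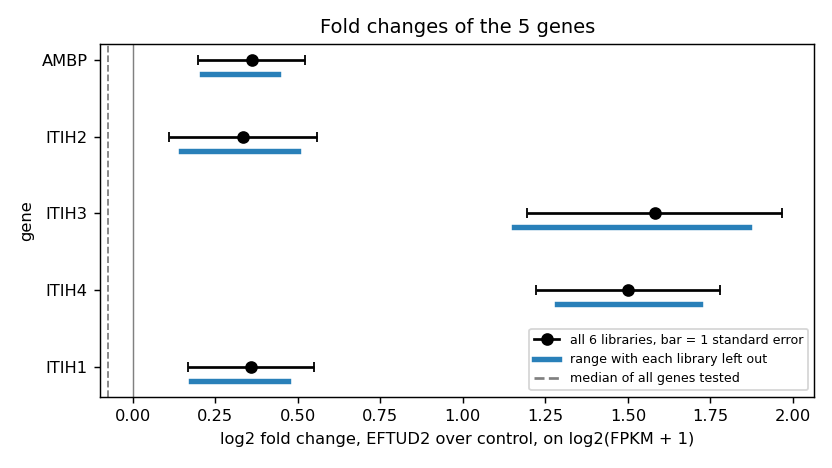
Log2 fold change of each gene, EFTUD2 over control, on log2(FPKM + 1), with bars of 1 standard error, the range found when each library in turn was left out (blue), and the median of all genes tested (dashed, -0.07). ITIH3 (1.58) and ITIH4 (1.50) stand apart from the other 3 genes, at 0.33 to 0.36, and every range stays above 0. The value of ITIH1, which averages 0.59 FPKM, is lowered by the 1 FPKM added (0.89 with 0.1 FPKM).

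The 5 genes did not follow 1 pattern across the libraries. Control replicate 2 was the lowest control for all 5 genes, which held for 37.1% of all genes tested. EFTUD2 replicate 3 was the highest EFTUD2 library for AMBP, ITIH1, ITIH2 and ITIH3, which held for 31.3% of all genes, but it was the lowest for ITIH4, where replicate 2 led. After centring each gene on its mean over the 6 libraries, the log2 values of ITIH1 differed from those of AMBP and ITIH2 by a root mean square of 0.11 each. Those of ITIH3 differed from ITIH4 by 0.59 and from the other 3 genes by 0.67 to 0.74. The values were not scaled, so these differences reflect the size of the change as well as the order of the libraries. By its highest EFTUD2 library, ITIH3 went with AMBP, ITIH1 and ITIH2 rather than with ITIH4. For ITIH1, at 0.15 to 1.27 FPKM, the 1 FPKM added before taking logs shrinks such differences. Its highest control was 3.40 times its lowest, against 1.16 times for AMBP and 1.64 times for ITIH2.

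The order of the EFTUD2 libraries for ITIH4 was also that of genes at very unequal levels in this group. VIM, the mesenchymal filament protein vimentin, gave 23.2, 59.6 and 2.87 FPKM in EFTUD2 replicates 1 to 3, where no control exceeded 0.12 FPKM. KRT17, a keratin of basal epithelium, gave 66.9, 135.1 and 9.29 FPKM, where no control exceeded 1.80 FPKM. KRT7, a keratin of simple and ductal epithelium, gave 24.7, 61.2 and 0.78 FPKM, the last within the control range of 0.61 to 1.34 FPKM. The part of this difference between libraries in the ITIH4 value was not tested.

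The genes most like each member were found by the same root mean square difference among the 12555 genes that averaged 1 FPKM or more. For ITIH4 they were PLAAT3 (0.20), TSPO (0.22) and C1R (0.23), the last a serine protease of the complement system. C1R had 3.42, 3.47 and 5.90 FPKM in controls 1 to 3, against 17.6, 28.2 and 10.2 FPKM in the EFTUD2 libraries. For ITIH3 they were a transcript that has no gene name in the table (0.10), FXYD1 (0.19) and A1BG (0.26), a secreted plasma glycoprotein. A1BG had 13.5, 4.38 and 8.58 FPKM in controls 1 to 3, against 13.5, 18.96 and 29.1 FPKM in the EFTUD2 libraries. For ITIH1 the nearest named genes were TF, the iron carrier transferrin (0.042), and ALAD (0.043), an enzyme of heme synthesis. For ITIH2 they were RHBDL1 (0.045), CEACAM1 (0.051) and ST6GALNAC6 (0.053), and for AMBP SLC25A6 (0.038), TRIP10 (0.044) and IGIP (0.046). A gene that varies little has small differences from many others, so these values are comparable only within 1 member. The differences of ITIH1 are also made small by the 1 FPKM added to its low values.

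Bikunin needs heavy chains to form inter-alpha-inhibitors, so heavy-chain mRNA was also set against AMBP mRNA within each library, a ratio that scaling of the library does not affect. The summed heavy chains, ITIH4 included, were 0.86, 0.51 and 0.62 times AMBP in control replicates 1 to 3 and 0.77, 0.72 and 0.78 times in EFTUD2 replicates 1 to 3. The group means of 0.66 ± 0.18 and 0.75 ± 0.034 (SD, n = 3 each) differed by less than the spread of the controls. Without ITIH4, whose protein circulates without bikunin, the means were 0.66 ± 0.18 and 0.74 ± 0.040 (SD, n = 3 each).

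The make-up of the heavy chains differed more. ITIH3 held 14.3%, 8.98% and 14.2% of the summed heavy-chain FPKM in the controls and 22.7%, 25.3% and 27.1% in the EFTUD2 libraries. ITIH2 held 85.1%, 90.4% and 84.7%, against 75.4%, 71.8% and 71.8%. Neither share overlapped between the groups. ITIH2 and ITIH3 made up nearly all of the summed heavy chains, so a larger ITIH3 share means a smaller ITIH2 share. The ITIH2 share is therefore no separate result. Both shares come from the FPKM values known when the family was chosen, so they are given as a description. There were 5.95, 10.1 and 5.95 times as many ITIH2 as ITIH3 transcripts per length in the controls and 3.33, 2.84 and 2.65 times in the EFTUD2 libraries. Relative to AMBP, ITIH2 was alike in the groups (0.57 ± 0.14 and 0.55 ± 0.035, SD, n = 3 each), and ITIH3 was at 0.086 ± 0.039 and 0.19 ± 0.019 (SD, n = 3 each).

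**Figure D3:**
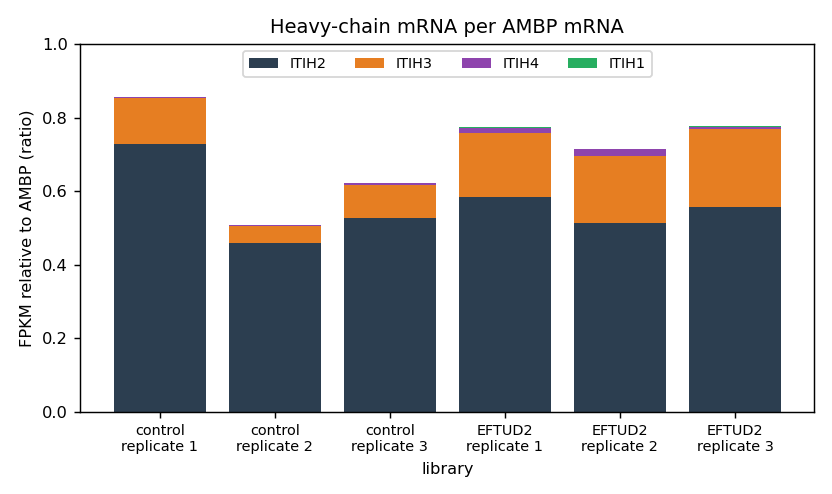
Stacked FPKM of the heavy chains divided by the FPKM of AMBP in the same library, for the 6 libraries. The total lies between 0.51 and 0.86 with no separation of the groups, while the ITIH3 part is larger in each EFTUD2 library than in each control.

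In GENCODE release 29, ITIH1, ITIH3 and ITIH4 lie in a cluster on chromosome 3 within 53888 bases, with 2699 bases between ITIH1 and ITIH3 and 3965 bases between ITIH3 and ITIH4, while ITIH2 lies on chromosome 10, 36270 bases from ITIH5. Their longest coding transcripts there have 22 exons for ITIH1 and ITIH3, 24 for ITIH4, 21 for ITIH2 and 10 for AMBP, with coding lengths of 2733, 2670, 2805, 2838 and 1056 bases. Within the cluster, the levels of ITIH3 and ITIH1, which are next to each other on the same strand, differed by far more than those of ITIH3 and ITIH2 on another chromosome.

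The genes around the cluster had log2 fold changes of -0.44 to 0.58. Of 14 neighbours tested, 5 had a log2 fold change above 0 and 9 below, with a median of -0.05, and 0 were called by limma over all genes tested. Over all genes tested, 37.3% were above 0 and the median was -0.07, which is the background for these counts and for those of the lists below. MUSTN1, next to ITIH4 on the same strand and overlapped over 2106 bases by the same protein-coding gene, stood at 0.99 ± 0.27 FPKM in the controls and 1.99 ± 0.61 FPKM in the EFTUD2 group (SD, n = 3 each). Its fold change was 0.58 on the log2 scale (standard error 0.18, limma adjusted p = 0.40). TKT, the pentose phosphate enzyme transketolase at the far end, had 0.56 (standard error 0.20, limma adjusted p = 0.40), and NT5DC2 had -0.35 (standard error 0.15, limma adjusted p = 0.40). Of 12 genes around AMBP, 9 were higher and 3 lower, with a median of 0.16, and of 7 around ITIH2, 4 were higher and 3 lower, with a median of 0.19; limma called 0 in both lists.

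**Figure D4:**
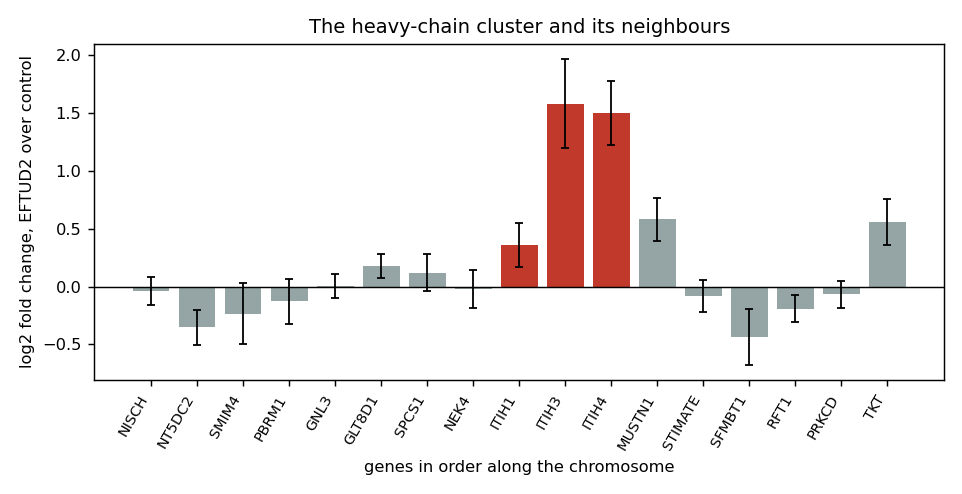
Log2 fold change (EFTUD2 over control, on log2(FPKM + 1)) of the heavy-chain genes ITIH1, ITIH3 and ITIH4 (red) and of 14 neighbouring genes (grey) in their order along chromosome 3, with bars of 1 standard error. ITIH3 (1.58) and ITIH4 (1.50) stand above all the neighbours, of which MUSTN1 (0.58) is the highest.

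The promoters of ITIH3 and ITIH4 are shown because these 2 genes had the largest differences. The windows are RefSeq's on GRCh38.p14, from 250 bases before to 50 bases from the annotated start, written 5′ to 3′ on the strand of the gene: chr3:52794546-52794845, plus strand, for ITIH3, and chr3:52830623-52830922, minus strand, for ITIH4. RefSeq windows were matched for 4 of the 5 genes. Capitals mark matches, by exact letters on both strands, to the following motifs: TTCNNNGAA (the STAT type), TTNNGNAA (the C/EBP type), CAAAGTCCA (the HNF4 type), GTTAATNAT and TATAAA.
ITIH3 promoter: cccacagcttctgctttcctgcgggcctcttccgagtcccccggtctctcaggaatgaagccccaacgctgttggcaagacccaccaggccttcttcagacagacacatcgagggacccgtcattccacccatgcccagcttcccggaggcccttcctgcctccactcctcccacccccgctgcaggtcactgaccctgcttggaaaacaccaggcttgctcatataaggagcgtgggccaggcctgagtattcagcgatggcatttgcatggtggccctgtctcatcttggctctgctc
ITIH4 promoter: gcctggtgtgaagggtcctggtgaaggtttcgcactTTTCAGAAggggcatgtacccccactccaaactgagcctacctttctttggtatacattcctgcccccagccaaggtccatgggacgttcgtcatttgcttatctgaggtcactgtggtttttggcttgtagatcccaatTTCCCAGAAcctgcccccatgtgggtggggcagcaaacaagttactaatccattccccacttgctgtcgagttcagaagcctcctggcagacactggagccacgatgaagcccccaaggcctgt

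The ITIH4 window held the STAT-type match TTCCCAGAA, whose first base lies 74 bases before the start, and a C/EBP-type match on the other strand, whose first base lies 214 bases before it. The 2 matches did not overlap. TTCNNNGAA was found in 7.66% and TTNNGNAA in 36.8% of 35116 promoter windows of the same length, so that the second in particular is common. CAAAGTCCA was found in 0.384%, GTTAATNAT in 0.792% and TATAAA in 11.5% of windows, and none of these had a match in the windows of the family. The ITIH1 windows do not reach the start of the gene given above (52777599) and lie at annotated starts inside it. The overlapping pair among them (from 52779671 and 52779676) held the C/EBP-type match TTTTGTAA, and the other window (from 52778236) held no match. No match to these motifs was found in the windows of ITIH3 and AMBP, which says only that these letters are not there.

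ITIH5 and ITIH6 are the related heavy-chain genes outside the 5. ITIH5 had 5.62, 5.20 and 6.94 FPKM in controls 1 to 3, against 9.43, 8.28 and 17.3 FPKM in the EFTUD2 libraries (log2 fold change 0.81, standard error 0.27, limma adjusted p = 0.40). As for ITIH3, each EFTUD2 library was above each control and replicate 3 was the highest. ITIH6 was listed at 0 FPKM in every library.

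Genes that act with inter-alpha-inhibitors on hyaluronan showed no common direction. Of the 19 genes in this list, 10 could be tested, 3 were higher and 7 lower in EFTUD2-overexpressing cells, the median log2 fold change was -0.11, and limma called 0. TNFAIP6, the enzyme that transfers heavy chains, was listed at 0 FPKM in the controls and had a mean of 0.033 FPKM in the EFTUD2 group, under the limit for a test; it was named after its values were seen. CD44, the hyaluronan receptor, did not exceed 0.07 FPKM in any control and gave 3.73, 8.13 and 0.65 FPKM in EFTUD2 replicates 1 to 3. The hyaluronidase gene HYAL1 was at 44.5 ± 4.05 and 45.1 ± 4.74 FPKM (SD, n = 3 each; log2 fold change 0.02, limma adjusted p = 0.95). The hyaluronan-degrading CEMIP was at 11.2 ± 3.99 and 5.77 ± 2.71 FPKM (SD, n = 3 each; log2 fold change -0.88, limma adjusted p = 0.40), with overlapping groups.

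The genes that build and process the complex lay on both sides of 0. Of 18 genes of chondroitin sulfate synthesis tested, 7 were higher and 11 lower, with a median log2 fold change of -0.09 and 0 called. CHPF, a subunit of the chondroitin polymerase and the highest of the list, stood at 116.7 ± 13.6 and 113.8 ± 10.2 FPKM (SD, n = 3 each). CSGALNACT2, which starts the chondroitin chain, was lower in each EFTUD2 library, at 7.97 ± 1.32 against 12.6 ± 0.85 FPKM (SD, n = 3 each; difference -0.61 on the log2 scale, standard error 0.15, limma adjusted p = 0.39). Of 18 genes of secretory processing, 12 were higher and 6 lower, where 37.3% of all genes tested were higher, with a median of 0.08 and 0 called. FURIN, a protease that cleaves many precursors in the secretory pathway, was at 63.4 ± 16.7 and 48.7 ± 13.2 FPKM (SD, n = 3 each).

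Among other inhibitors with Kunitz domains, 9 were tested, 6 of them higher and 3 lower, with a median log2 fold change of 0.02 and 0 called. APLP2, the highest of them, stood at 172.6 ± 4.88 and 196.9 ± 50.5 FPKM, and TFPI, the inhibitor of tissue factor, at 161.5 ± 45.99 and 175.5 ± 98.1 FPKM (SD, n = 3 each). Of 23 serine proteases tested, 17 were higher and 6 lower, with a median of 0.26 and 0 called. In 8 of the 23 the EFTUD2 libraries were above all controls, against 7.92% of all genes tested, and in 1 they were below, against 19.4%. PLAU, the urokinase-type plasminogen activator, was that 1, at 7.09 ± 0.93 and 3.89 ± 0.80 FPKM (SD, n = 3 each; difference -0.74 on the log2 scale, standard error 0.17, limma adjusted p = 0.39).

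Other plasma proteins of the liver mostly had values above 0, without calls. Of 21 acute-phase genes tested, 20 had a log2 fold change above 0 and 1 below, the median was 0.77, and limma called 0 over all genes. In 13 of the 21 the EFTUD2 libraries were above all controls, against 7.92% of all genes tested, and in 0 they were below, against 19.4%. SERPINA3, an inhibitor of neutrophil cathepsin G, had 886, 366 and 930 FPKM in controls 1 to 3, against 1693, 1653 and 1469 FPKM in the EFTUD2 libraries (log2 fold change 1.25, standard error 0.36, limma adjusted p = 0.40). Like ITIH3 it had its lowest control in replicate 2, but not its highest value in EFTUD2 replicate 3. LBP, the carrier of bacterial lipopolysaccharide, had 0.10, 0.15 and 0.46 FPKM in controls 1 to 3, against 10.9, 43.98 and 2.15 FPKM in the EFTUD2 libraries, the order of ITIH4. SAA4, an apolipoprotein that is made without inflammation, was the 1 gene below 0, at 94.5 ± 31.9 and 86.7 ± 44.3 FPKM (SD, n = 3 each).

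Of 25 other secreted liver proteins tested, 22 were higher and 3 lower, with a median log2 fold change of 0.46 and 0 called. In 10 of the 25 the EFTUD2 libraries were above all controls, against 7.92% of all genes tested, and in 0 they were below, against 19.4%. ALB, serum albumin, was at 2391 ± 627 and 3078 ± 1432 FPKM (SD, n = 3 each), and AHSG, a plasma inhibitor of calcification, at 1318 ± 510 and 1771 ± 614 FPKM, both with overlapping groups. SERPING1, the inhibitor of C1 esterase and plasma kallikrein, was at 3.94 ± 1.56 and 10.2 ± 1.26 FPKM (SD, n = 3 each; difference 1.22 on the log2 scale, standard error 0.24, limma adjusted p = 0.29). The fold changes of AMBP, ITIH1 and ITIH2, at 0.33 to 0.36, lay under the medians of both lists, and those of ITIH3 and ITIH4 above them. The value of ITIH1 depends on the added constant, at 0.89 with 0.1 FPKM. All these lists were set with earlier results of these libraries known and share their controls with the family, so they are no independent evidence about it.

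Transcription factors of the liver had no common direction. Of 28 tested, 11 were higher and 17 lower, with a median log2 fold change of -0.16 and 0 called. CEBPB and CEBPD, which take part in the acute-phase response, were higher in each EFTUD2 library, at 49.1 ± 7.91 against 32.7 ± 4.09 FPKM and at 44.6 ± 3.53 against 25.7 ± 9.23 FPKM (SD, n = 3 each), with limma adjusted p = 0.40 for both. HNF4A, a nuclear receptor of hepatocytes, stood at 63.4 ± 13.99 against 73.7 ± 7.43 FPKM (SD, n = 3 each) with overlapping groups.

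**Figure D5:**
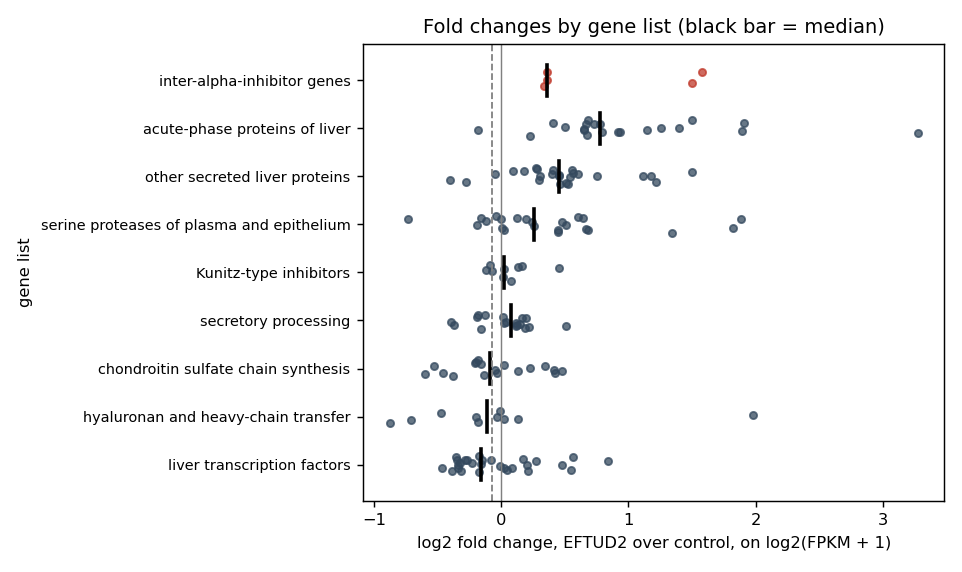
Log2 fold change (EFTUD2 over control, on log2(FPKM + 1)) of each tested gene in the inter-alpha-inhibitor family (red) and in 8 gene lists (dark), 1 point per gene with random vertical spread, the list's median as a black bar and the median of all genes as a dashed line. The medians of acute-phase (0.77) and other secreted liver proteins (0.46) lie to the right, those of the lists for hyaluronan, chondroitin sulfate and transcription factors at or under -0.09.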

How the data were processed

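The authors extracted RNA with TRIzol, selected poly-A mRNA and sequenced it on the BGISEQ-500 platform. They deposited 1 table of FPKM values, rounded to 2 decimals, with 1 column per library. The submitters' processing notes list HISAT2, Bowtie2, RSEM, DESeq2 and the build hg38. Versions and the annotation are not given in the sources used here. Low values showed no common step between libraries (at most 3.06% of genes shared 1 ratio), so reads were not recovered and no interval from read numbers is given.

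From these values log2(FPKM + 1) was computed, genes averaging under 0.1 FPKM were dropped, and limma 3.58.1 (eBayes with trend) compared the groups in R 4.3.3, without a block, adjusted over all genes tested. The fit was tested on simulated data. An exact permutation test of 3 libraries against 3 cannot go below p = 0.1 and was not used. Members and gene lists were chosen with earlier results of these data known. Named genes are, per list, the 3 highest in level and the 2 largest increases and decreases with a mean of at least 1 FPKM, unless stated, besides the 5 family genes, EFTUD2, ITIH5, ITIH6, VIM, KRT17, KRT7 and the genes most alike. Gene positions and promoters are RefSeq's (GRCh38.p14), and transcripts those of GENCODE release 29. Protein sequences were not used here. A withheld item is not reported here. The alternatives were other pseudocounts, filters and scalings, the replicate number as a block, array weights and each library left out in turn. Python 3.11.15, pandas 2.3.3 and matplotlib 3.10.9 were used for the other steps.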

Additional observations from a re-analysis of the deposited data

How the results depend on the processing

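Of 96 alternative values, 90 kept their direction and stayed within the bounds set for them, which were the side of the threshold for EFTUD2, 0 for the number of genes called and 1 SD between replicates for the 5 family genes and the ratio of heavy chains to AMBP. Filters on low values and the replicate block cannot alter a gene's own log2 fold change. The values of the 5 genes in these fits were therefore kept by construction, yet are among the 90. ITIH1 averaged under 1 FPKM and has no value with the filter at that mean. The number of genes called was 0 in all fits except 2, with 1246 under array weights and 167 without EFTUD2 replicate 3 (range 0 to 167 over the libraries left out). EFTUD2 itself passed the threshold in the same 2 fits, with log2 fold changes of 1.14 under array weights and 1.14 without EFTUD2 replicate 3 (range 1.07 to 1.26). Under array weights the log2 fold change was 0.14 for AMBP, 0.11 for ITIH2, 0.084 for ITIH1, 1.21 for ITIH3 and 1.48 for ITIH4, and that of ITIH1 was 0.89 with a pseudocount of 0.1, which weighs low values more by its construction. The cause of the others was not tested. With each library left out in turn, the log2 fold change lay between 1.15 and 1.87 for ITIH3, 1.28 and 1.72 for ITIH4, 0.21 and 0.44 for AMBP, 0.15 and 0.50 for ITIH2, and 0.18 and 0.47 for ITIH1. ITIH2 was lowest without control replicate 2, and AMBP (0.21) and ITIH1 (0.18) without EFTUD2 replicate 3. Median-of-ratios scaling moved the median of all genes from -0.07 to 0.00 and the share of genes above 0 from 37.3% to 50.4%, and all 5 genes stayed above 0 with it and with a common sum per library. With the replicate number as a block, limma called 0 genes, and the log2 fold changes stayed the same by construction. The standard error fell for AMBP, ITIH1, ITIH2 and ITIH3 (0.39 to 0.29) and rose for ITIH4 (0.28 to 0.32). The deviations of same-numbered libraries correlated at -0.30, 0.35 and -0.09 over genes, and control replicate 1 correlated best with EFTUD2 replicate 3 (0.38). Deviations from a group mean depend on one another, so these values cannot decide whether the numbers pair the libraries. The depth is unknown, so the precision of low values such as those of ITIH1 cannot be stated.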
